A study of Mus musculus with 45 samples.

Results

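Microglia sorted from the embryonic brain at E14.5 and from the adult brain at P56 (8 weeks) were compared across the transcriptome. All microglia libraries of these 2 ages entered, 3 at E14.5 and 5 at P56, which makes 8 of the 45 libraries of the series. The series holds bulk RNA sequencing of microglia, of meningeal macrophages (mMΦ) and of perivascular macrophages, each sorted from mouse brains at up to 5 ages. Every mouse was of strain C57BL/6J and genotype Cx3cr1GFP/wt, so 1 allele of the fractalkine receptor gene Cx3cr1 carried GFP at both ages and 1 allele was left to make the receptor. The mice were kept in a specific-pathogen-free facility without treatment, and each library stands for 1 mouse by the series' design. The E14.5 libraries and P56 replicates 1 to 3 belong to batch S232 of the labels and P56 replicates 4 and 5 to batch S276. Library values are listed in order of replicate number, so the last 2 of the 5 values at P56 are those of batch S276. Microglia at P3 (3 libraries), P10 (3) and P21 (5) serve to place a change in time, and mMΦ at E14.5 and P56 (3 libraries each, 6 in all) to ask whether a change was shared.

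Microglia are the resident macrophages of the brain parenchyma. They arise from yolk sac progenitors, enter the neural tube in the embryo, multiply there and spread through the tissue as rounded, motile cells. After birth they take on a ramified shape, divide rarely and express a set of receptors, among them P2RY12 and TMEM119, by which adult microglia are recognised. Their survival depends on the receptor CSF1R, and their adult state on transcription factors such as PU.1, IRF8 and SALL1 and on TGF-beta.

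The libraries held 9898257 (P56 replicate 2) to 21933068 counts, and levels are given as CPM, counts scaled to library totals that were adjusted by the TMM method. Thinned to equal totals, the E14.5 libraries held 15970 to 16589 genes and the P56 libraries 12826 to 15147. Replicates lay closer together at E14.5 (Pearson r of log2 CPM across genes 0.936 to 0.954) than at P56 (0.768 to 0.924), where replicate 2 had the lowest values. By the inactivation transcript Xist and the Y-linked gene Ddx3y, E14.5 replicates 1 and 2 were of female type and the other 6 libraries of male type, so sex and age are in part confounded. Of other cell types, erythroid transcripts summed to 15 to 93.3 CPM at E14.5 and 0.121 to 4.69 at P56, neural progenitor transcripts (with Vim, which macrophages also make) to 197 to 213 and 18.3 to 61.5, neuronal transcripts to 6.54 to 19.7 and 3.51 to 25.2, and transcripts of monocytes to 13.5 to 20.9 and 0.97 to 12.4. B cell transcripts, from 2 tested genes, summed to 712 to 763 CPM at E14.5 and 227 to 873 at P56. Oligodendrocyte lineage transcripts summed to 123 to 130 and 103 to 217 CPM, and endothelial transcripts to 32.8 to 52.6 and 8.0 to 89.8. T and NK cell transcripts summed to 0.571 to 1.44 and 0.114 to 42.1 CPM. Border macrophage transcripts summed to 839.7 to 906 CPM at E14.5 and 612 to 1028 at P56. That sum includes Maf, also in the list of microglial transcription factors, which was higher at P56 than at E14.5. Microglial identity transcripts summed to 31856 to 34786 and 163133 to 228442 CPM, and Cst3 was a large part of the adult sum. The list's median also rose in mMΦ (log2 fold change 1.53), so the sum alone does not set microglia apart from other macrophages. P2ry12, Tmem119 and Siglech were present in every library of both ages. In bulk samples fewer cells of a type and less RNA per cell cannot be told apart.

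The edgeR quasi-likelihood test, with Benjamini-Hochberg adjustment over the 17064 genes tested, called 1758 genes between the ages (10.3%) at an adjusted p under 0.05. Of these, 828 were higher (4.85%) and 930 lower (5.45%) at P56. The sizes were unequal. The median log2 fold change was 1.55 among the genes called higher and -5.11 among those called lower, beside -0.07 over all genes tested, and 690 genes were over 4-fold lower against 260 over 4-fold higher. For 118 genes called lower no count was left in any of the 5 adult libraries, while 18 genes called higher had none in the 3 embryonic libraries. The spread between replicates was unequal too, with a common dispersion in edgeR of 0.269 at E14.5 and 1.63 at P56. Its part in the unequal sizes was not tested. The 5 and 3 libraries did not overlap for 3321 genes (19.5%), among them 651 of the genes called higher and 792 of those called lower. Within batch S276 alone, 799 of the 930 lower genes lay below every E14.5 library, although 86 of the 930 stood over 4 times higher in the S276 than in the S232 libraries of P56. At an unadjusted p under 0.05 there were 4072 genes. Without E14.5 replicate 1, 2 or 3 the genes called higher numbered 534, 488 and 513, and limma voomWithQualityWeights called 1379 higher and 1974 lower.

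**Figure D1:**
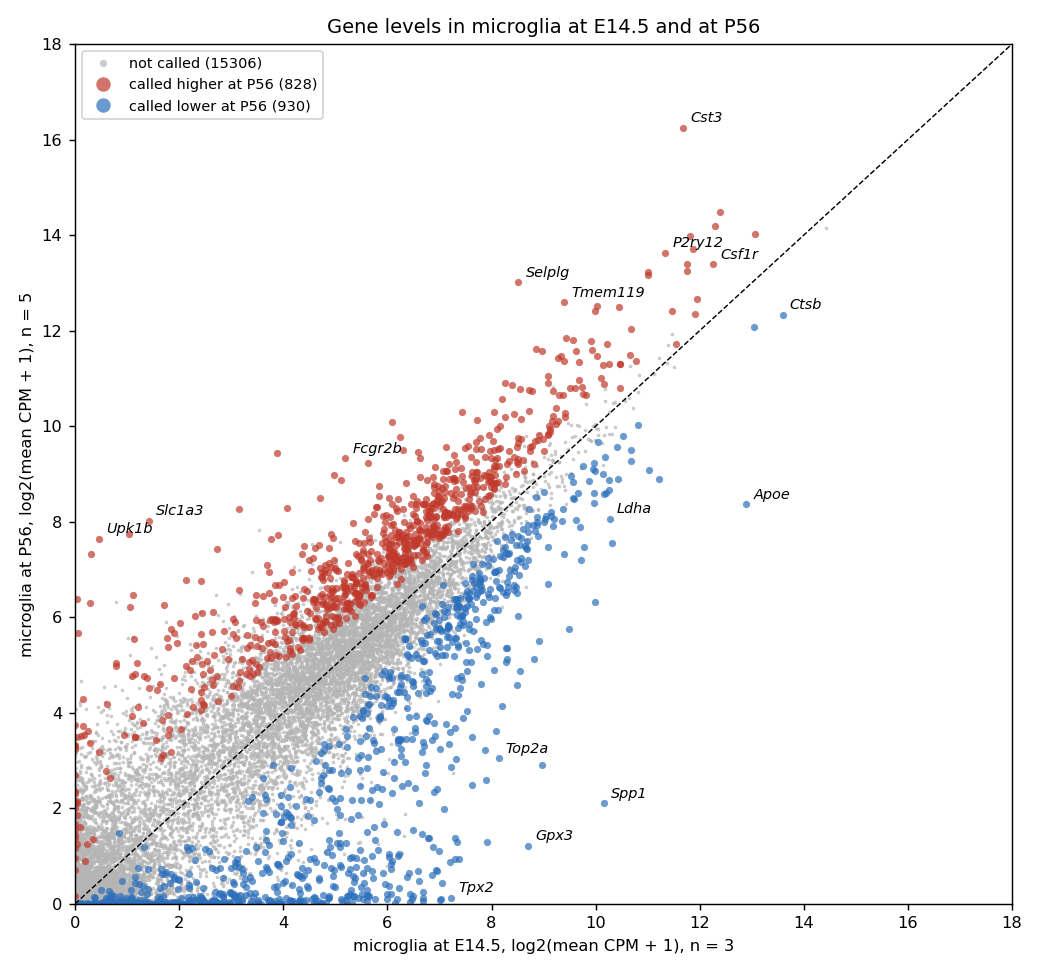
Mean level of each gene tested in microglia at E14.5 (x axis, n = 3) and P56 (y axis, n = 5), both as log2(mean CPM + 1), with the 828 genes called higher at P56 in red and the 930 called lower in blue. The red points lie in a band above the dashed line of equal levels, led by Cst3, while many blue points reach the bottom of the plot, where the adult level is near 0.

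Genes of cell division fell together. Of 30 genes of mitosis tested, 27 fell and none rose, with a median log2 fold change of -7.25. The 3 that were not called, Ccna2, Ttk and Nuf2, had fitted log2 fold changes of -4.23, -5.57 and -6.50 (adjusted p = 0.072, 0.058 and 0.065), and the libraries of the 2 ages did not overlap for any of the 30. Mki67, which encodes the proliferation antigen Ki-67, was at 84.3, 92.1 and 79.9 CPM at E14.5 and 0.114, 0.606, 0.0521, 0 and 0 CPM at P56 (log2 fold change -8.63 ± 1.5, adjusted p = 8.2e-05). The gene of the mitotic kinase Plk1 was at 82.9, 82.8 and 89.5 CPM at E14.5 and at 0.0571, 0, 0.0521, 0 and 0 CPM at P56, where 2 counts remained in all, 3520-fold (95% counting interval 974 to 29100) lower (adjusted p = 6.1e-06). Adult levels of Mki67 and Plk1 were below 1 CPM in each of the 5 mice.

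Ccnb1, the cyclin that drives entry into mitosis, went from 66.3, 73.5 and 80.5 CPM to 0.0571, 0.242, 0.156, 0.849 and 0 CPM (log2 fold change -7.24 ± 1.69, adjusted p = 0.0032). Kif20a, a kinesin of cytokinesis, and Tpx2, a spindle assembly factor, changed by -10.52 ± 1.42 and -10.32 ± 1.5 on the log2 scale (adjusted p = 1.2e-06 and 4.5e-06). Top2a, the topoisomerase that untangles sister chromatids, kept a residue, with 264, 309.9 and 267 CPM at E14.5 and 0.0571, 2.42, 24.6, 5.99 and 3.43 at P56 (log2 fold change -4.55 ± 1.12, adjusted p = 0.0052). Cdc20, an activator of the anaphase-promoting complex, was likewise at 131, 104 and 134 CPM and then 0.286, 0.364, 9.64, 6.49 and 4.51 (log2 fold change -4.58 ± 1.18, adjusted p = 0.0078). Replicate 3 held the highest adult level of Top2a, of Cdc20 and of Ccna2, whose values at P56 were 0.114, 0.242, 21.7, 1.55 and 4.57 CPM after 155, 146 and 159 at E14.5. Without that library Ccna2 passed the test (log2 fold change -6.06, adjusted p = 0.047). Stil, a centriole duplication factor, and Sgo1, a protector of centromeric cohesion, had no adult count at all, at least 994-fold and 654-fold lower by a floor of 3 counts over the group. With only the compared groups in the fit, the call of Top2a was lost (adjusted p = 0.072).

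The promoters of some of these genes are shown because the list moved together. CCAAT boxes and the cell cycle homology region are known elements of cell cycle promoters, the latter bound by complexes that hold such genes down in resting cells, and E2F sites are known from genes of the replication phase. Each sequence is the 250 bases before the annotated start in RefSeq on build GRCm38.p6, 5′ to 3′ on the strand of the gene, with matches on either strand to CCAAT, to TTTGAA (the cell cycle homology region), to TTTCCCGC or TTTGGCGC (E2F sites) or to GAGGAAGT (a PU.1 site) in capitals. They lie at chr13:100786487-100786736 (minus strand), chr7:122159185-122159434 (plus), chr4:118437344-118437593 (minus), chr8:75109259-75109508 (plus) and, for the microglial receptor gene P2ry12, at chr3:59262986-59263235 (minus).
Ccnb1: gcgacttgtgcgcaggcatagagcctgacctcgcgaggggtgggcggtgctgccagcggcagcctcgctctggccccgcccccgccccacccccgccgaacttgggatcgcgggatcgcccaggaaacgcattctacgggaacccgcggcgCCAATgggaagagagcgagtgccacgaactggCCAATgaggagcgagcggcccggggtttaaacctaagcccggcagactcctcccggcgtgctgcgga
Plk1: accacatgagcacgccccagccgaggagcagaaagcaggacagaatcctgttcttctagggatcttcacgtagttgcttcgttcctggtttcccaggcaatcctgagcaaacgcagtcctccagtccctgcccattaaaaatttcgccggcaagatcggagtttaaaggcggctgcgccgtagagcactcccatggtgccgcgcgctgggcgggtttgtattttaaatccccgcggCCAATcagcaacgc
Cdc20: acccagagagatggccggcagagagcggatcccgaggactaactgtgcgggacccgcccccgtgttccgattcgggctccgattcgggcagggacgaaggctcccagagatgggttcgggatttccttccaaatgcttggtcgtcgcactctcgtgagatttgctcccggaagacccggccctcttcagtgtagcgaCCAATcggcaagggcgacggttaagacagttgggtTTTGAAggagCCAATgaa
Mcm5: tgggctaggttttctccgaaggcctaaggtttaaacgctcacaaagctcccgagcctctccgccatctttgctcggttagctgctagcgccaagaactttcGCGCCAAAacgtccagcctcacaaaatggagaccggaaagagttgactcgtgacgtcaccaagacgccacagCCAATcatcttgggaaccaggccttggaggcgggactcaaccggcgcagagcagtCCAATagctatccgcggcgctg
P2ry12: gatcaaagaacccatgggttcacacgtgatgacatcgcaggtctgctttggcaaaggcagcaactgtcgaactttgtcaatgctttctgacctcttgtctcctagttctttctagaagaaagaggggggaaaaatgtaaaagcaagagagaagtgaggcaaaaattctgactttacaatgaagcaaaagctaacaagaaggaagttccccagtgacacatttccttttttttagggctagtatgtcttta
CCAAT was found on either strand in 22 of the 27 promoter windows of mitosis genes in the RefSeq table (81.5%; 25 of 30 genes matched), beside 33.8% of all 32851 windows of the same length. Windows with 2 or more of them made up 55.6% of the mitosis windows and 10.1% of all. TTTGAA was in 37.0% of the mitosis windows and 16.0% of all. Of 30 windows of DNA replication genes (25 of 31 genes matched), 56.7% held CCAAT and 10% held TTTGGCGC, beside 0.417% of all windows for the latter. TTTCCCGC was in 6.67% of them and in 0.895% of all. The 24 windows of microglial identity genes (20 of 30 genes matched) held CCAAT in 37.5% and TTTGAA in 12.5%. None of the 24 held GAGGAAGT, beside 2.44% of all windows. At that share 24 windows are too few to show a lack, and no other form of the PU.1 site was searched. None of the mitosis windows held TTTCCCGC or TTTGGCGC, and TTTGAA was in 10% of the replication windows. A match is a string of letters and not a bound site, and matches of different motifs may overlap.

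DNA replication genes fell as well, but less deeply. Of 31 tested, 20 fell and none rose, at a median log2 fold change of -3.95, and for 30 of them the libraries did not overlap. Mcm5, a subunit of the helicase that opens the origins, was at 298, 281 and 307 CPM at E14.5 and 12.5, 4.0, 37.4, 14.9 and 14.2 CPM at P56 (log2 fold change -4.29 ± 1.23, adjusted p = 0.018). The adult libraries retained some of it, and the call was lost within batch S232 (log2 fold change -4.03, adjusted p = 0.1). Mcm3, another subunit, was not called, with 244, 308 and 327 CPM and then 157, 54.3, 0.313, 70.3 and 84.9 (adjusted p = 0.16). Uhrf1, which guides the maintenance of DNA methylation behind the replication fork, left 2 counts at P56 after 97.5, 89.5 and 119 CPM at E14.5, 4240-fold (95% counting interval 1170 to 35000) lower (adjusted p = 9.8e-06). Mybl2, a transcription factor of dividing cells, went from 11.6, 11.3 and 16.8 CPM to no count, at least 364-fold lower.

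Few of the genes that hold the cell cycle back were called. Of 17 tested, Btg1 rose, Cdkn2c and Tob2 fell and 14 were not called, with a median of 0.05 (-0.16 with genes without a count at their bound). Over all genes tested 4.85% were called higher and 5.45% lower, so these counts are not read as a change of the list. Cdkn2c, an inhibitor of the G1 kinases, was at 71.8, 83.7 and 70.6 CPM at E14.5 and 6.51, 0.606, 13.8, 6.54 and 10.1 at P56 (log2 fold change -3.12 ± 0.54, adjusted p = 9.2e-05, and adjusted p = 0.06 with only the compared groups in the fit). Among 22 tested genes of DNA methylation and chromatin (of 23 listed) 4 fell and none rose, at a median of -0.70. They were Dnmt1, Hdac9, Hells and Hmgb2, and Hmgb2, a chromatin protein of dividing cells, went from 74.9, 66.5 and 66.6 CPM to 11.4, 25, 12.6, 3.84 and 5.49 (log2 fold change -2.39 ± 0.37, adjusted p = 1.5e-05). Of 17 fetal growth and imprinted genes that passed the filter on low counts (of 20 listed), 6 fell and none rose, at a median of -2.30. With only the compared groups in the fit 3 fell. As log2(mean CPM + 1), in which levels near 0 weigh less, the median change of the list was -0.66. Igf2bp3, an RNA-binding protein of embryonic tissues, was at 120.2, 115 and 111 CPM at E14.5 and 0.343, 1.45, 0.0521, 0.0499 and 0.686 at P56 (log2 fold change -8.31 ± 1.2, adjusted p = 4.0e-06).

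By group means on the log2 scale, the largest step in the fall of the division genes lay between P10 and P21. Relative to E14.5, the median level of the 30 mitosis genes, as log2(mean CPM + 1), stood at -0.82 at P3, -0.48 at P10, -5.73 at P21 and -5.67 at P56. All 27 mitosis genes and all 20 replication genes called lower passed the midpoint of their change at P21. Mki67 had means of 93.2 ± 89.5 CPM at P3 (SD, n = 3) and 125 ± 12.6 at P10 (n = 3), then 0.345 ± 0.646 at P21 (n = 5). Uhrf1 already stood lower at P10, at 18.7 ± 3.96 CPM (n = 3) against 102 ± 15.1 at E14.5 (n = 3).

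Other groups changed at other times. The midpoint was counted for called genes whose level changed at least 2-fold. Of 646 such genes called higher, 203 passed it at P3, 254 at P10, 137 at P21 and 52 at P56. Of 748 called lower, 163 passed it at P3, 176 at P10, 356 at P21 and 53 at P56. Microglial identity genes passed it mostly at P10 (16 of 24). Falling chemokine and cytokine genes passed it mostly at P3 (6 of 9), and so did rising genes of MHC class I (6 of 9).

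**Figure D2:**
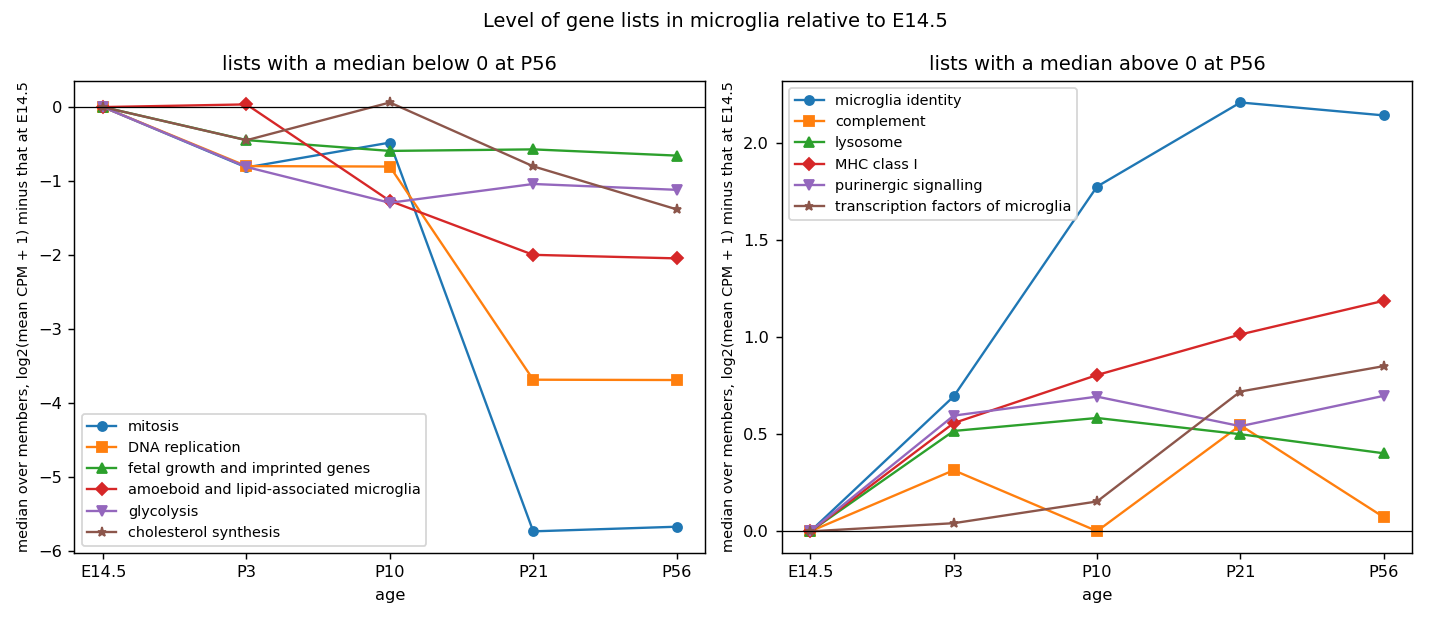
Median over the members of 12 gene lists of the level in microglia, log2(mean CPM + 1) minus that at E14.5 (y axis), at the 5 ages (x axis; n = 3, 3, 3, 5 and 5 libraries). The mitosis and DNA replication lists drop between P10 and P21, to -5.73 and -3.68, while the microglial identity list climbs to 1.78 at P10 and 2.21 at P21.

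Most of the genes by which microglia are known were higher in the adult. Of 29 identity genes tested (of 30 listed), 27 rose, none fell and 2 were not called, with a median log2 fold change of 2.10. P2ry12, the receptor for nucleotides that steers microglial processes, was at 2447, 2642 and 2643 CPM at E14.5 and 14519, 12467, 10247, 13113 and 12883 CPM at P56 (log2 fold change 2.22 ± 0.28, adjusted p = 2.2e-07). Tmem119, a membrane protein used as a marker of microglia, was at 644, 688 and 677 CPM and then 5958, 4215, 4645, 7941 and 8127 (log2 fold change 2.97 ± 0.33, adjusted p = 1.8e-08). The lectin gene Siglech went from 675, 674 and 723 CPM to 3755, 4415, 4735, 2913 and 2628 (log2 fold change 2.7 ± 0.29, adjusted p = 9.2e-09). For each of these 3 genes every adult library stood above every embryonic one.

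Cst3, which encodes the protease inhibitor cystatin C, stood at 3615, 3056 and 3128 CPM at E14.5 and 82176, 119974, 94204, 47327 and 44198 CPM at P56 (log2 fold change 4.82 ± 0.26, adjusted p = 3.1e-16). Selplg, the ligand of the selectins, was at 373, 329 and 395 CPM and then 10314, 6912, 6465, 8714 and 8985 (log2 fold change 4.62 ± 0.40, adjusted p = 1.1e-10). Upk1b, a tetraspanin, was close to absent in the embryo at 0.136, 0.0476 and 0.958 CPM and stood at 230.4, 167, 169, 217 and 214 CPM in the adult (log2 fold change 9.02 ± 1.92, adjusted p = 0.0016). At P21 it was already at 189 ± 32.7 CPM (SD, n = 5). Sparc, a secreted matrix protein, rose by 2.43 ± 0.43 on the log2 scale (adjusted p = 1.0e-04).

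The growth factor receptor of the lineage changed by less. Csf1r was at 3872, 5095 and 5724 CPM at E14.5 and 10777, 6638, 6604, 13219 and 16219.5 CPM at P56 (log2 fold change 0.92 ± 0.22, adjusted p = 0.0033), and it missed the threshold without E14.5 replicate 1 (adjusted p = 0.061) or with only the compared groups in the fit (0.08). Cx3cr1, the locus of the reporter, was at 1056, 1283 and 1222 CPM and then 3729, 3295, 2102, 3596 and 4115 (log2 fold change 1.36 ± 0.25, adjusted p = 2.0e-04). Tgfbr1, a subunit of the TGF-beta receptor, did not pass the test at 435, 642 and 669 CPM and 1665, 1259, 1149, 2221 and 2671 (adjusted p = 0.11), although no adult library overlapped with an embryonic one. With limma voomWithQualityWeights the calls of P2ry12, Cst3, Selplg, Sparc and Csf1r were lost (adjusted p = 0.82, 0.26, 0.23, 0.21 and 0.85) at log2 fold changes of 2.01, 4.56, 4.42, 2.31 and 0.76.

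**Figure D3:**
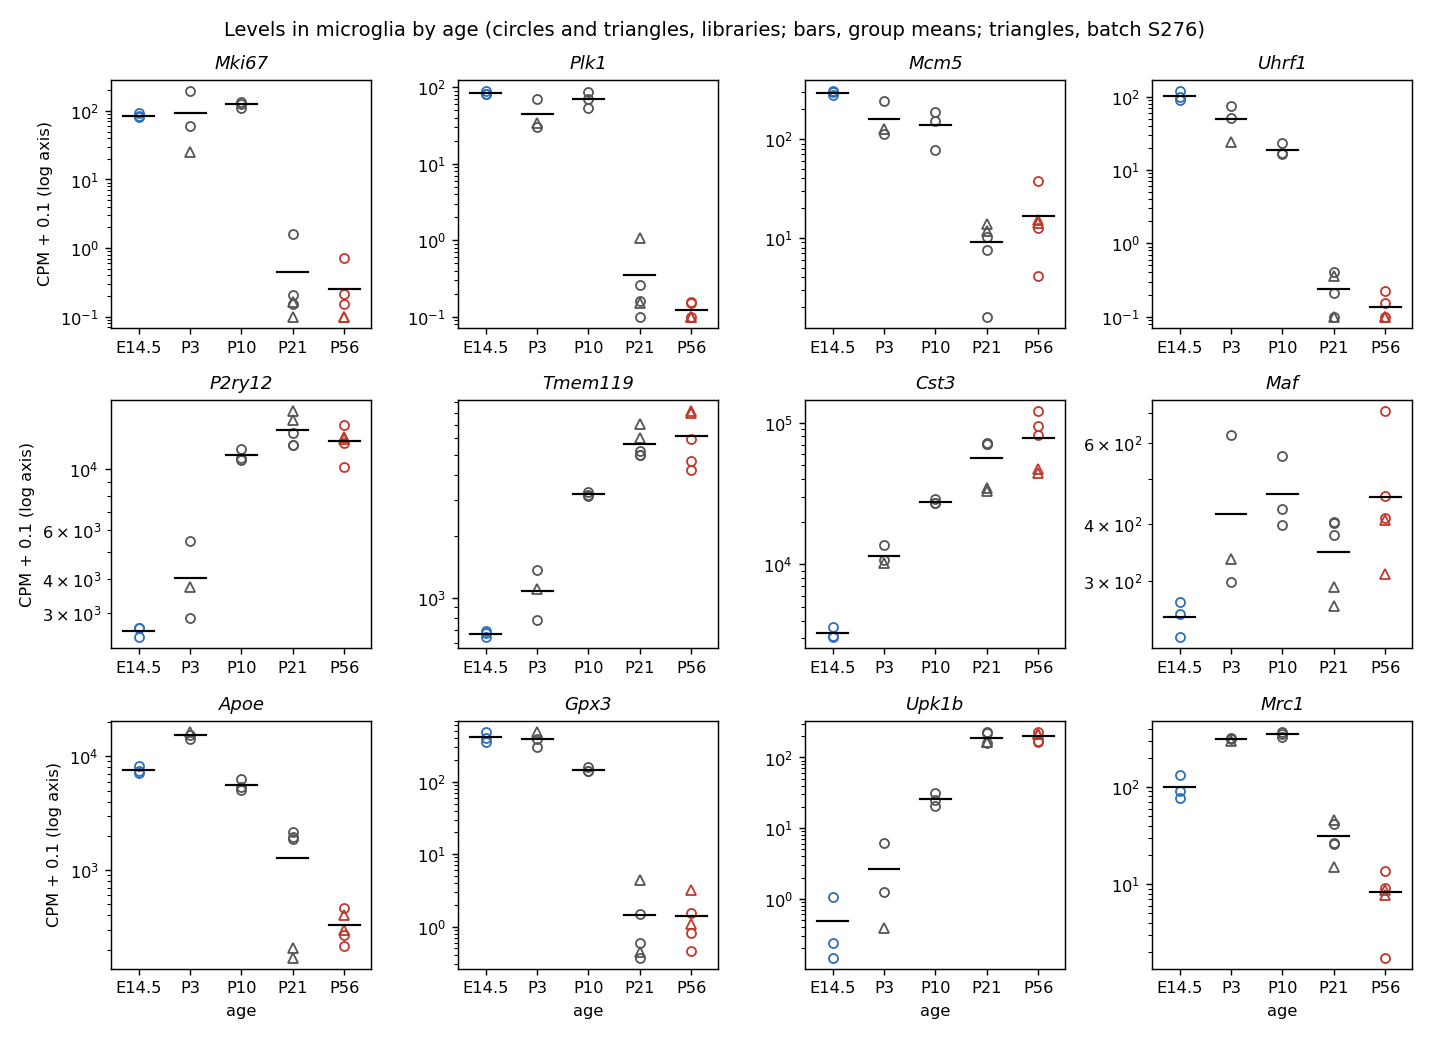
Levels of 12 genes in the 19 microglia libraries by age, as CPM + 0.1 on a log axis; circles and triangles are libraries (triangles, batch S276) and bars are group means. Mki67, Plk1, Mcm5 and Uhrf1 drop by P21, P2ry12, Tmem119, Cst3, Maf and Upk1b are higher at P56 than at E14.5, and Apoe, Gpx3 and Mrc1 are lower at P21 than at P3.

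Transcription factors of microglia split. Of 24 tested, 11 rose, among them Spi1 (PU.1), Irf8, Mef2a, Mef2c and Cebpa, and 2, Cebpb and Bhlhe40, fell, with a median of 0.80. With only the compared groups in the fit 6 rose and 1 fell. Maf, a factor of macrophage differentiation, was at 269, 253 and 226 CPM at E14.5 and 411, 704, 459, 407 and 311 CPM at P56 (log2 fold change 1.07 ± 0.21, adjusted p = 4.2e-04). Sall1, a repressor tied to microglial identity, did not pass the test at 118, 139.9 and 138 CPM and 371, 202, 361, 465 and 479 (log2 fold change 1.36 ± 0.82, adjusted p = 0.32), while its libraries did not overlap. A fit of the 19 microglia libraries alone called it (adjusted p = 7.1e-04).

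Genes known from amoeboid and lipid-laden microglia fell in the majority. Of 29 tested, 19 fell, 3 rose and 7 were not called, at a median of -2.10, and their summed level went from 31058 to 32621 CPM to 12150.2 to 18744. Apoe, the main lipid carrier of the brain, was at 8285, 7171 and 7382 CPM in the embryo and 266, 215, 465, 406 and 298 CPM in the adult (log2 fold change -4.02 ± 0.43, adjusted p = 9.2e-09). Its highest mean of the 5 ages was 15310.3 ± 1075 CPM at P3 (SD, n = 3), and stood at 1279 ± 1001 at P21 (n = 5). Gpx3, a secreted glutathione peroxidase, went from 357, 408 and 487 CPM to 1.43, 0.727, 0.365, 3.10 and 0.971 (log2 fold change -8.61 ± 0.56, adjusted p = 7.1e-14). Spp1, which encodes osteopontin, went from 1721, 898 and 807 CPM to 11, 1.82, 0.417, 2.75 and 0.571 (log2 fold change -8.04 ± 1.41, adjusted p = 9.7e-05). For these 3 genes every embryonic library stood above every adult one.

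Gpnmb, a glycoprotein of lipid-laden phagocytes, was at 125, 70.1 and 112 CPM and then 0.0571, 0.242, 0.0521, 0.0499 and 0 (log2 fold change -11.16 ± 2.54, adjusted p = 0.0024). The growth factor gene Igf1 was at 70.3, 46.9 and 40.9 CPM at E14.5, had a mean of 147 ± 26.9 at P3 (SD, n = 3) and was at 0.171, 0.364, 4.01, 2.10 and 3.49 at P56 (log2 fold change -4.93 ± 0.54, adjusted p = 1.8e-08). Fabp5, a fatty acid carrier, went from 244, 147 and 103 CPM to 0, 0, 3.91, 0.0999 and 0.629 (log2 fold change -7.16 ± 1.0, adjusted p = 2.2e-06), the single adult value above 1 CPM being that of replicate 3. The list did not move as a whole. The 3 members that rose were Tyrobp, the signalling adaptor of TREM2 (log2 fold change 1.69 ± 0.24, adjusted p = 3.7e-06), Cd68, a lysosomal glycoprotein (log2 fold change 1.51 ± 0.13, adjusted p = 9.6e-11), and the tetraspanin gene Cd9 (log2 fold change 1.21 ± 0.32, adjusted p = 0.01). Cd9 missed the threshold without E14.5 replicate 2 or 3 (adjusted p = 0.067 and 0.079), and Apoe and Spp1 with limma voomWithQualityWeights (log2 fold changes -3.93 and -8.64, adjusted p = 0.84 and 0.062).

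Genes that mark border macrophages were checked in the same libraries. Of 20 tested, 6 fell and 3 rose, at a median of -0.57, and 2 fell with only the compared groups in the fit. Maf, given with the transcription factors above, was among the 3 that rose. Mrc1, the mannose receptor, was at 76.4, 91.1 and 133 CPM in the embryo and 1.66, 13.6, 9.07, 7.59 and 8.69 in the adult (log2 fold change -3.66 ± 0.33, adjusted p = 2.5e-10), with higher means at P3 (309 ± 7.75, SD, n = 3) and P10 (348 ± 23, n = 3) than at either end. Ms4a7 had means of 16.8 ± 0.126 CPM at E14.5 (SD, n = 3) and 1.05 ± 0.724 at P56 (n = 5; log2 fold change -3.98 ± 0.65, adjusted p = 3.1e-05). For Pf4, a chemokine of border macrophages, the embryonic values were 7.22, 6.04 and 4.75 CPM and the adult ones 1.26, 4.36, 1.67, 1.15 and 1.66 (adjusted p = 0.055), and it passed without P56 replicate 2, its highest adult library (adjusted p = 0.013). At P56 the meningeal macrophages of the same series held means of 2954 CPM of Mrc1, 1926 of Ms4a7 and 3431 of Pf4 (n = 3). The part of such cells in the embryonic levels was not tested. With limma voomWithQualityWeights Mrc1 and Ms4a7 were not called (adjusted p = 0.64 and 0.14), nor was Ms4a7 with only the compared groups in the fit (0.061).

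Genes of lipid handling fell in part. Of 22 tested genes of lipid uptake and efflux (of 23 listed), 12 fell and 1, Npc2, rose, at a median of -2.07. With only the compared groups in the fit 6 fell. This list shares Apoe, Lpl, Plin2 and Fabp5 with the amoeboid and lipid-associated list. Of 23 genes of cholesterol synthesis and its control, 6 fell and 1, Ebp, rose, at -1.68. Without the batch term 3 of them fell, and Ebp was not called with only the compared groups in the fit or without E14.5 replicate 1. Stard4, a carrier of cholesterol, was at 19.1, 12.8 and 10.7 CPM and 0, 0.121, 0.156, 3.25 and 0.114 (log2 fold change -6.10 ± 1.31, adjusted p = 0.0012). Replicate 4 of batch S276 was the highest adult library, and without the batch term the log2 fold change was -4.25 (adjusted p = 0.02).

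Part of the glycolysis genes fell. Of 24 tested, 8 fell and 1 rose, at a median of -1.28. Ldha, the lactate dehydrogenase subunit of glycolytic tissues, was at 1375, 1232 and 1101 CPM at E14.5 and 311, 256, 294, 249 and 219 CPM at P56 (log2 fold change -2.10 ± 0.16, adjusted p = 2.8e-12). Pkm, the pyruvate kinase gene, was at 892, 888 and 857 CPM and 142, 162, 187, 199.8 and 188 (log2 fold change -2.29 ± 0.18, adjusted p = 8.8e-12). The 1 gene that rose was Ldhb, the subunit of oxidative tissues, at 301, 239 and 215 CPM and then 789.5, 808, 749.8, 636 and 559 (log2 fold change 1.72 ± 0.43, adjusted p = 0.0064), which missed the threshold without E14.5 replicate 3 (adjusted p = 0.06). The ages did not overlap for any of these 3 genes. Of 19 genes of serine and one-carbon metabolism 5 fell and none rose, at a median of -1.80, and 3 fell without the batch term. Psat1, an enzyme of serine synthesis, went from 409, 371 and 341 CPM to 34.4, 0.727, 10.7, 47.4 and 48.3 (log2 fold change -4.03 ± 1.0, adjusted p = 0.0056).

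The degradative compartment rose in part. Of 34 lysosomal genes tested, 16 rose and 3 fell, at a median of 0.47. The protease genes moved in opposite ways. Ctss, cathepsin S, went from 3232, 3676 and 3834 CPM to 21206, 15964, 18323, 12515 and 12431 (log2 fold change 2.29 ± 0.22, adjusted p = 6.8e-10), and Ctsh and Ctsd rose by 2.09 ± 0.19 and 1.01 ± 0.16 (adjusted p = 2.4e-10 and 1.3e-05). Ctsb, cathepsin B, fell from 11481, 12234 and 13285 CPM to 6011, 3868, 5122, 5747 and 4998 (log2 fold change -1.17 ± 0.14, adjusted p = 9.0e-08). The ages did not overlap for any of these 4 genes. Gusb, the beta-glucuronidase gene, changed by -1.11 ± 0.17 (adjusted p = 8.4e-06), and the third that fell was Gla. With limma voomWithQualityWeights Ctss, Ctsd and Ctsb were not called (adjusted p = 0.2, 0.14 and 0.98) at log2 fold changes of 2.28, 0.83 and -0.90.

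Complement genes rose at the head of the classical pathway. Of 19 tested (of 20 listed), 7 rose, and 2, C2 and Cfb, fell, at a median of 0.88 (0.23 with genes without a count at their bound). The 3 chains of C1q, which tags synapses and debris for uptake, rose to a like degree. C1qa was at 2211, 1998 and 1925 CPM at E14.5 and 9603, 12287, 10004, 7478 and 6554 CPM at P56 (log2 fold change 2.32 ± 0.12, adjusted p = 7.5e-17), and C1qb and C1qc changed by 2.12 ± 0.12 and 2.0 ± 0.13 (adjusted p = 3.0e-15 and 1.5e-13). With limma voomWithQualityWeights C1qb and C1qc were not called (adjusted p = 0.8 and 0.86) at log2 fold changes of 2.30 and 1.97. C2, the protease of the next step, was low in the embryo at 6.31, 5.66 and 6.51 CPM and lower still in the adult at 0, 0.242, 0.0521, 0.0499 and 0.171 (log2 fold change -6.25 ± 1.04, adjusted p = 4.3e-05, and adjusted p = 0.057 with only the compared groups in the fit).

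Receptors for uptake changed in both directions. Of 25 tested (of 26 listed), 9 rose and 7 fell, at a median of 0.94, and 4 fell with only the compared groups in the fit. Fcgr2b, the inhibitory receptor for immunoglobulin G, rose most among those named, from 35.2, 36.5 and 35.1 CPM to 818, 789, 634, 518 and 439 (log2 fold change 4.28 ± 0.22, adjusted p = 8.7e-17). The activating receptor gene Fcgr3 and the lipid-sensing receptor gene Trem2 rose by 2.01 ± 0.18 and 2.37 ± 0.22 (adjusted p = 1.3e-10 and 5.8e-10). Axl, a receptor for dying cells, fell from 119, 144 and 172 CPM to 0.171, 0.242, 1.51, 10.3 and 33.9 (log2 fold change -6.08 ± 0.91, adjusted p = 7.4e-06). Its adult libraries differed by batch, with both S276 libraries above the 3 of S232, and without the batch term its log2 fold change was -3.97 (adjusted p = 0.0045). Colec12, a scavenger receptor, fell from 12.8, 3.38 and 14 CPM to 0.228, 0.364, 0.104, 0.0499 and 0.114 (log2 fold change -6.13 ± 0.61, adjusted p = 2.3e-09).

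In the main fit purinergic genes either rose or were not called. Of 17 tested (of 19 listed), 6 rose and none fell, with a median of 0.61. Every adult library stood above every embryonic one for 7 members and below for 2, beside 19.5% of all genes tested without overlap in either direction. P2ry12, P2ry13, Entpd1 and Gpr34 are also members of the identity list, so the 2 lists are not separate results. Trem2, Itgam and Cx3cr1 likewise stand in the identity list and in other lists. With only the compared groups in the fit 7 rose and 1 fell, and likewise without the batch term. Gpr34, listed with the purinergic genes, is a receptor for lysophosphatidylserine. It was at 995, 1054 and 1065 CPM and then 7715, 6188, 5236, 5158 and 5003 (log2 fold change 2.42 ± 0.29, adjusted p = 1.4e-07). Gpr183, an oxysterol receptor listed with them, rose from 46.0, 40.9 and 59.2 CPM to 566, 774, 707, 441 and 502 (log2 fold change 3.56 ± 0.26, adjusted p = 1.3e-12). Adult libraries stood above embryonic ones throughout for both. Of 17 ion channel genes 2 rose, Hvcn1 and Orai1, and 15 were not called, at a median of 0.65. Of 19 genes of sialic acid receptors and sialylation 3 rose and 2 fell, at a median of 0.04. Beside Siglech, these were Siglece, an inhibitory receptor for sialic acids (log2 fold change 2.15 ± 0.28, adjusted p = 4.2e-07), and St3gal6, a sialyltransferase (log2 fold change 2.68 ± 0.36, adjusted p = 8.6e-07), against Siglec1 and Cmah. With only the compared groups in the fit or without the batch term neither of those 2 was called. Without P56 replicate 1, 3 or 4 or E14.5 replicate 1 neither was called, and without P56 replicate 2 or 5, without E14.5 replicate 3 or within batch S232 only 1 of them was. Of 21 tested genes of TGF-beta signalling (of 23 listed) 2 rose, Ltbp3 and Pmepa1, 1 fell, Nrros, and 18 were not called, at a median of 0.52. Over all genes tested 4.85% were called higher and 5.45% lower. Counts as small as those of the ion channel, sialic acid and TGF-beta lists are not read as a change of these lists. The fall of Nrros was not called with only the compared groups in the fit, without the batch term, within batch S232 or without P56 replicate 2, 3, 4 or 5 or E14.5 replicate 2 or 3.

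Genes of antigen presentation rose in part. Of 17 MHC class I genes tested, 10 rose and none fell, at a median of 1.39. H2-K1, a classical heavy chain, was at 154, 109 and 137 CPM and then 567, 504, 663, 527 and 407 (log2 fold change 2.07 ± 0.19, adjusted p = 2.4e-10). H2-D1 and H2-T23 rose by 1.77 ± 0.22 and 2.92 ± 0.27 (adjusted p = 2.8e-07 and 3.6e-10). Reads of these genes may be shared with near-identical copies of the same locus, so the split among them is uncertain.

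Of 11 MHC class II genes 3 rose and none fell, at a median of 1.04. With only the compared groups in the fit 5 of the 11 class II genes and 8 of the 17 class I genes rose. The peptide exchange genes H2-DMa and H2-DMb1 rose, from 79.4, 82.5 and 80.3 CPM to 459, 553, 547, 333 and 329.6 (log2 fold change 2.58 ± 0.30, adjusted p = 5.2e-08) and by 3.23 ± 0.33 (adjusted p = 4.5e-09). The third was the costimulator gene Cd86. The chain gene H2-Aa, by contrast, was at 14.48, 2.09 and 1.32 CPM at E14.5 and 0.514, 1.21, 19.6, 2.85 and 3.31 at P56 (adjusted p = 1), and the invariant chain gene Cd74 at 30.6, 24.2 and 27.6 CPM and 50.9, 12.6, 7.76, 40.6 and 55.5 (adjusted p = 0.67). Their ages overlapped, and the sign of both changes depended on the libraries fitted.

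Genes of innate sensing rose in part. Of 23 genes of Toll-like receptors and adaptors 5 rose and 1, Tlr2, fell, at a median of 0.42, and their summed level went from 3380.2 to 3861 CPM to 6353 to 7124. Tlr2 was not called with only the compared groups in the fit, without the batch term, within batch S232 or without P56 replicate 4 or E14.5 replicate 3. Cd14, the coreceptor for lipopolysaccharide, was at 76.4, 109.9 and 97.8 CPM and then 790, 589, 745, 655 and 726 (log2 fold change 2.91 ± 0.26, adjusted p = 2.4e-10), and its partner Ly96 rose from 13.7, 14.8 and 13.9 CPM to 149.8, 97.0, 119.9, 78.1 and 61.1 (log2 fold change 3.01 ± 0.28, adjusted p = 3.9e-10). With limma voomWithQualityWeights Cd14 was not called (log2 fold change 2.58, adjusted p = 0.52). Tlr4, the receptor both serve, was not called (log2 fold change 0.85 ± 0.44, adjusted p = 0.24). Of 30 interferon response genes 5 rose and 4 fell, at a median of -0.17, and with only the compared groups in the fit 1 rose and 2 fell. Without P56 replicate 2, 3 rose and 2 fell.

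Secreted signals changed in both directions. Of 30 chemokine and cytokine genes 6 rose and 9 fell, at a median of -0.08. Ccl3, a chemokine of activated microglia, fell from 862, 935 and 1238 CPM to 56.9, 165, 86.4, 38.3 and 46.1 (log2 fold change -3.59 ± 0.44, adjusted p = 1.4e-07), and Ccl4 from 1039, 1195 and 1599 CPM to 188, 198, 342, 105 and 105 (log2 fold change -2.7 ± 0.51, adjusted p = 2.9e-04). Tnf, the inflammatory cytokine, fell from 225, 200 and 273 CPM to 0.0571, 1.70, 5.21, 12 and 22.7 (log2 fold change -6.07 ± 0.89, adjusted p = 5.8e-06). At P3 the means of the 3 genes were 202 ± 61.3, 141 ± 14.4 and 39.7 ± 11.1 CPM (SD, n = 3). Cxcl16, a membrane-bound chemokine, rose from 24.4, 28.6 and 22.8 CPM to 109, 198, 76.9, 101 and 79.5 (log2 fold change 2.27 ± 0.37, adjusted p = 2.6e-05).

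Of 35 genes of chemokine, cytokine and growth factor receptors 10 rose and 4 fell, at a median of 0.30, and 2 fell with only the compared groups in the fit. Ifngr1, the receptor for interferon gamma, was at 520.5, 541 and 568 CPM and then 2316, 2272, 1908, 2114 and 1999 (log2 fold change 1.95 ± 0.16, adjusted p = 1.2e-11). Ccr1, a receptor for inflammatory chemokines, fell from 55.3, 40.1 and 45.6 CPM to 0.286, 4.48, 12.3, 20.7 and 14.51 (log2 fold change -2.55 ± 0.50, adjusted p = 4.9e-04), a call lost with only the compared groups in the fit (adjusted p = 0.14) and with limma voomWithQualityWeights (0.057). Of 32 genes of adhesion and matrix 7 rose and 4 fell, at a median of -0.23. The integrin chains divided. Itgam, the CD11b chain by which microglia are often sorted, rose from 81.2, 107 and 118 CPM to 235, 325, 318, 377 and 389.9 (log2 fold change 1.70 ± 0.33, adjusted p = 3.9e-04). Itgal, the CD11a chain, was at 45.3, 87.1 and 76.5 CPM at E14.5 and left 1 count at P56, 5750-fold (95% counting interval 1030 to 227000) lower (adjusted p = 6.1e-06). At P10 its mean was 0.478 ± 0.828 CPM (SD, n = 3), after 36.3 ± 19.1 at P3 (n = 3).

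Immediate early genes respond within minutes to stimuli and to tissue dissociation. Of 34 tested, 12 fell and 1, Klf4, rose, at a median of -0.71, and their summed level was 12252 to 15873 CPM at E14.5 and 4538 to 9449.8 at P56. Egr1 was at 1882, 2263 and 3017 CPM and then 526, 547, 413, 275 and 619 (log2 fold change -2.63 ± 0.56, adjusted p = 0.0012, and adjusted p = 0.075 with limma voomWithQualityWeights). The part of the dissociation in the cytokine changes above was not tested. Of 17 tested circadian clock genes (of 20 listed) 3 rose, Dbp, Hlf and Bhlhe41, and 1, Bhlhe40, fell. The ages overlapped for Bhlhe40, whose call was lost with only the compared groups in the fit, without the batch term and without P56 replicate 1, 2 or 3 or E14.5 replicate 2. Hlf, an output factor of the clock, had no count at E14.5 and 4.05, 7.27, 1.25, 16.6 and 13.3 CPM at P56, at least 193-fold higher by a floor of 3 counts over the group. The time of day of sampling is not given in the sources used here.

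Large rises were also found for Thrsp, Sult1a1 and Slc1a3, the last a member of the astrocyte marker list. Thrsp, a regulator of lipid synthesis, was at 0.726, 0 and 0 CPM in the embryo and 97.1, 277, 201, 129 and 88.3 CPM in the adult (log2 fold change 9.47 ± 2.17, adjusted p = 0.0033). Sult1a1, a sulfotransferase, was at 0, 0.666 and 2.52 CPM and 190.2, 218, 289, 231 and 139 (log2 fold change 7.68 ± 0.71, adjusted p = 3.6e-10). Slc1a3, a glutamate transporter best known from astrocytes, was at 0.363, 3.38 and 1.28 CPM and 199, 82.5, 289, 442 and 279 (log2 fold change 6.88 ± 1.28, adjusted p = 2.1e-04). Of the 11 other astrocyte markers tested, none rose and 1, Gja1, fell, a call that was lost with only the compared groups in the fit, without the batch term, within batch S232 and without P56 replicate 1, 3 or 5 or E14.5 replicate 3. The summed level of the astrocyte markers, with Slc1a3, was 23.9 to 35.1 CPM at E14.5 and 85.1 to 495 at P56, and the defining markers Gfap, Aqp4 and Slc1a2 were not called.

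**Figure D4:**
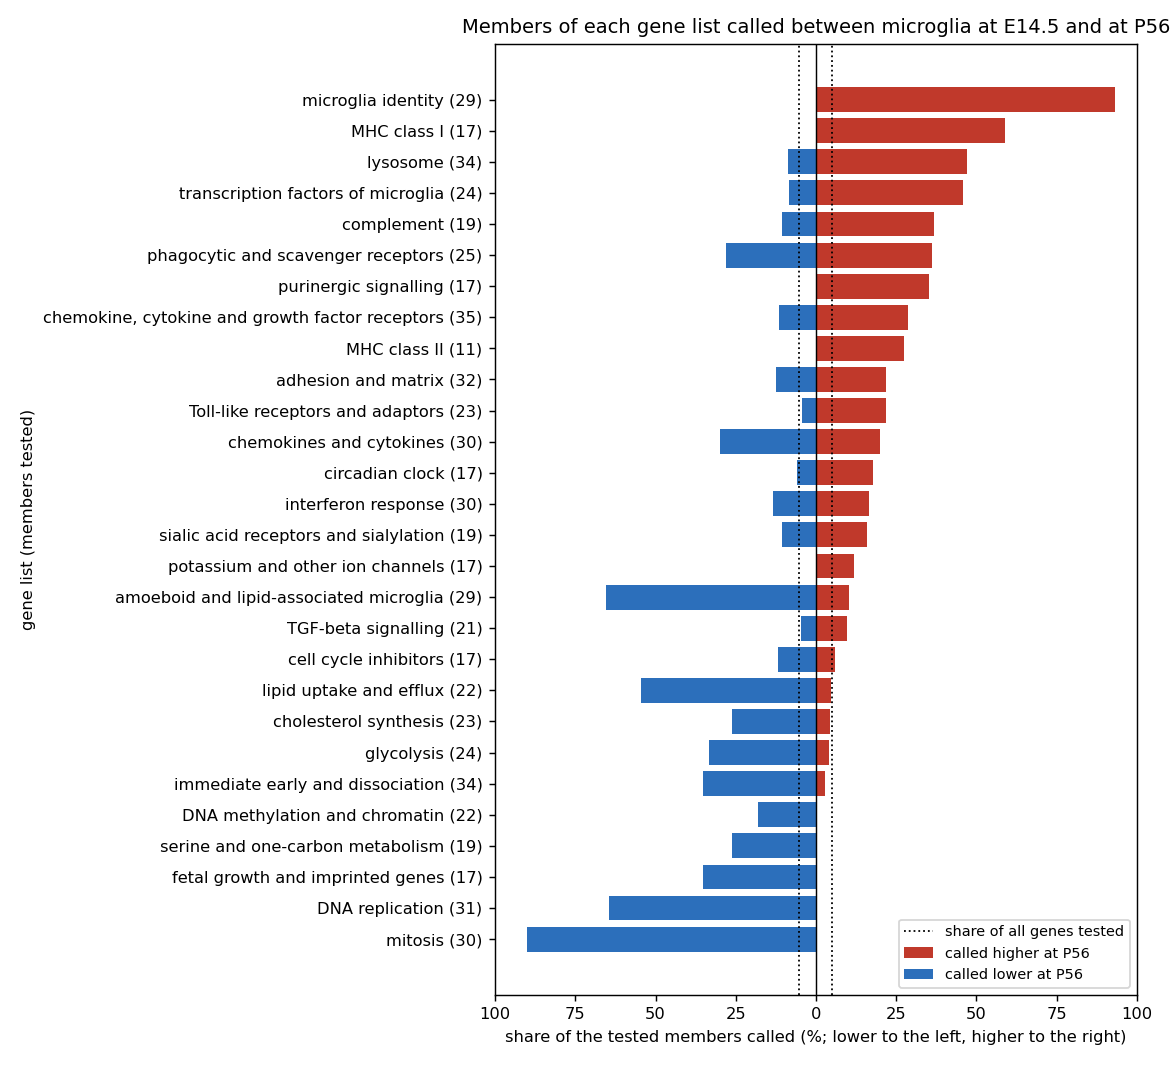
Share of the tested members of each of 28 gene lists called higher (red, to the right) or lower (blue, to the left) at P56 (x axis, percent; the number tested stands beside the list's name), with dotted lines at 4.85% and 5.45%, the shares of all genes tested. Microglial identity reaches furthest to the right, with 27 of 29 higher, and mitosis furthest to the left, with 27 of 30 lower.

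To ask which of these changes were shared outside the parenchyma, the change from E14.5 to P56 was compared with that of meningeal macrophages of the same mouse line (3 libraries at each age). The difference between the changes, tested in the same edgeR fit, was called for 294 genes (1.72%). The microglial change was the more positive in 81 of them (0.475%) and the more negative in 213 (1.25%). In mMΦ 943 genes were called between the ages (5.53%). Of the genes called in both populations, 546 changed in the same direction and 28 in opposite directions.

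The median of the division genes fell in both populations. The mitosis list had a median log2 fold change of -7.13 in mMΦ beside -7.25 in microglia, and for 2 of its 30 members the difference was called. The replication list had a median of -2.78 in mMΦ beside -3.95 in microglia, with 1 difference called among 31 members. All of these differences were more negative in microglia, beside 1.25% of all genes tested. A difference that was not called does not show that the 2 changes were equal. A rise of C1qa (2.50 ± 0.12, adjusted p = 5.8e-17), Fcgr2b (4.14 ± 0.22, adjusted p = 5.5e-16) and H2-K1 (2.41 ± 0.20, adjusted p = 3.3e-11) was also found in mMΦ (values are log2 fold changes), and no difference was called for these 3.

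Genes of lipid-laden microglia differed between the populations. Of the 29 amoeboid and lipid-associated genes, 12 had a microglial change more negative than that of mMΦ and none a more positive one, and the list's median was 0.58 in mMΦ. Apoe fell in microglia and rose in mMΦ, from 11781 ± 508 to 74469 ± 6033 CPM (SD, n = 3 each; difference -6.68 ± 0.64, adjusted p = 1.2e-08). Gpx3 was at 489.8 ± 31.7 and 635 ± 35.6 CPM in mMΦ (difference -8.99 ± 0.77, adjusted p = 6.0e-10), and Igf1 at 239.9 ± 34.8 and 339.8 ± 60.1 (difference -5.43 ± 0.78, adjusted p = 2.2e-05). Neither passed the test for age in mMΦ (log2 fold changes 0.37 ± 0.49, adjusted p = 0.74, and 0.50 ± 0.54, adjusted p = 0.68). Fabp5 differed as well (difference -6.27 ± 1.37, adjusted p = 0.0071, and adjusted p = 0.11 with only the compared groups in the fit), as did Ms4a7 (difference -6.13 ± 0.95, adjusted p = 8.3e-05) and Mrc1 (difference -3.85 ± 0.49, adjusted p = 2.7e-06).

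The cholesterol genes differed in 7 of 23 cases, each with the more negative change in microglia, and their median was 1.42 in mMΦ. Stard4 was at 10.7 ± 4.71 and 28.8 ± 6.99 CPM in mMΦ (SD, n = 3 each; difference -7.53 ± 1.84, adjusted p = 0.02), a difference that was not called without the batch term (adjusted p = 0.14). Axl (difference -8.24 ± 1.31, adjusted p = 1.0e-04), Colec12 (difference -5.28 ± 0.82, adjusted p = 8.3e-05), Ctsb (difference -1.75 ± 0.21, adjusted p = 5.3e-07) and C2 (difference -7.44 ± 1.43, adjusted p = 0.0016) had more negative changes in microglia too. Ccn1, a matrix signalling protein, fell in microglia from 88.6, 101 and 114 CPM to 0, 0.242, 0.104, 0.25 and 0.343 (log2 fold change -9.61 ± 1.22, adjusted p = 3.3e-07), beside 78.4 ± 30.2 and 686 ± 109 CPM in mMΦ (n = 3; difference -12.74 ± 1.72, adjusted p = 7.9e-06). Ldha fell in both populations, further in microglia (difference -1.13 ± 0.24, adjusted p = 0.004, and adjusted p = 0.071 with no filter on low counts).

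MHC class II genes also differed. The median of the 11 class II genes was 6.04 in mMΦ beside 1.04 in microglia, and 6 of the 11 had the more negative change in microglia and 1 the more positive. H2-Aa reached 2932 ± 852 CPM in adult mMΦ from 0.549 ± 0.269 (SD, n = 3 each; difference -12.39 ± 1.65, adjusted p = 6.0e-06), and Cd74 9437 ± 2687 from 36.9 ± 5.23 (difference -7.56 ± 0.82, adjusted p = 1.2e-07). H2-DMa and H2-DMb1, which rose in microglia, rose more in mMΦ (difference -3.13 ± 0.40, adjusted p = 2.9e-06, and difference -2.81 ± 0.43, adjusted p = 7.5e-05). Cd14 (difference -1.72 ± 0.34, adjusted p = 0.0025), Cxcl16 (difference -2.14 ± 0.49, adjusted p = 0.013) and Ccr1 (difference -3.56 ± 0.74, adjusted p = 0.004) likewise had the more positive change in mMΦ, and so did Ccl3 (difference -4.12 ± 0.65, adjusted p = 1.0e-04) and 13 of the 34 immediate early genes. With only the compared groups in the fit the differences of Cxcl16 and Ccr1 were not called (adjusted p = 0.1 and 0.067).

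Fewer genes had the more positive change in microglia. The microglial identity list had a median log2 fold change of 1.53 in mMΦ beside 2.10 in microglia. Of its 29 tested members, the microglial change was called the more positive for 3 and the more negative for 2. Cst3 rose in both populations and more in microglia (difference 1.86 ± 0.31, adjusted p = 2.0e-04), as did Selplg (difference 2.57 ± 0.50, adjusted p = 0.0016) and Gpr183 (difference 2.34 ± 0.34, adjusted p = 2.2e-05). Without the batch term the adjusted p for Cst3 was 0.051. Cx3cr1 rose in microglia and was at 544 ± 50.2 and 479 ± 152 CPM in mMΦ (SD, n = 3 each; difference 1.54 ± 0.36, adjusted p = 0.013). Without E14.5 replicate 1 the difference for Cx3cr1 missed the threshold (adjusted p = 0.055), and without E14.5 replicate 1, 2 or 3 the 81 genes became 42, 46 and 47. With limma voomWithQualityWeights the differences of Apoe, Ctsb, Cst3, Selplg, Cd14, Mrc1, Ms4a7 and Cx3cr1 were not called (adjusted p = 0.077 to 0.98), at differences of the same sign. Sult1a1 rose more in microglia (difference 3.10 ± 0.77, adjusted p = 0.023), which did not hold without E14.5 replicate 2 (adjusted p = 0.095) or with only the compared groups in the fit (0.18).

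**Figure D5:**
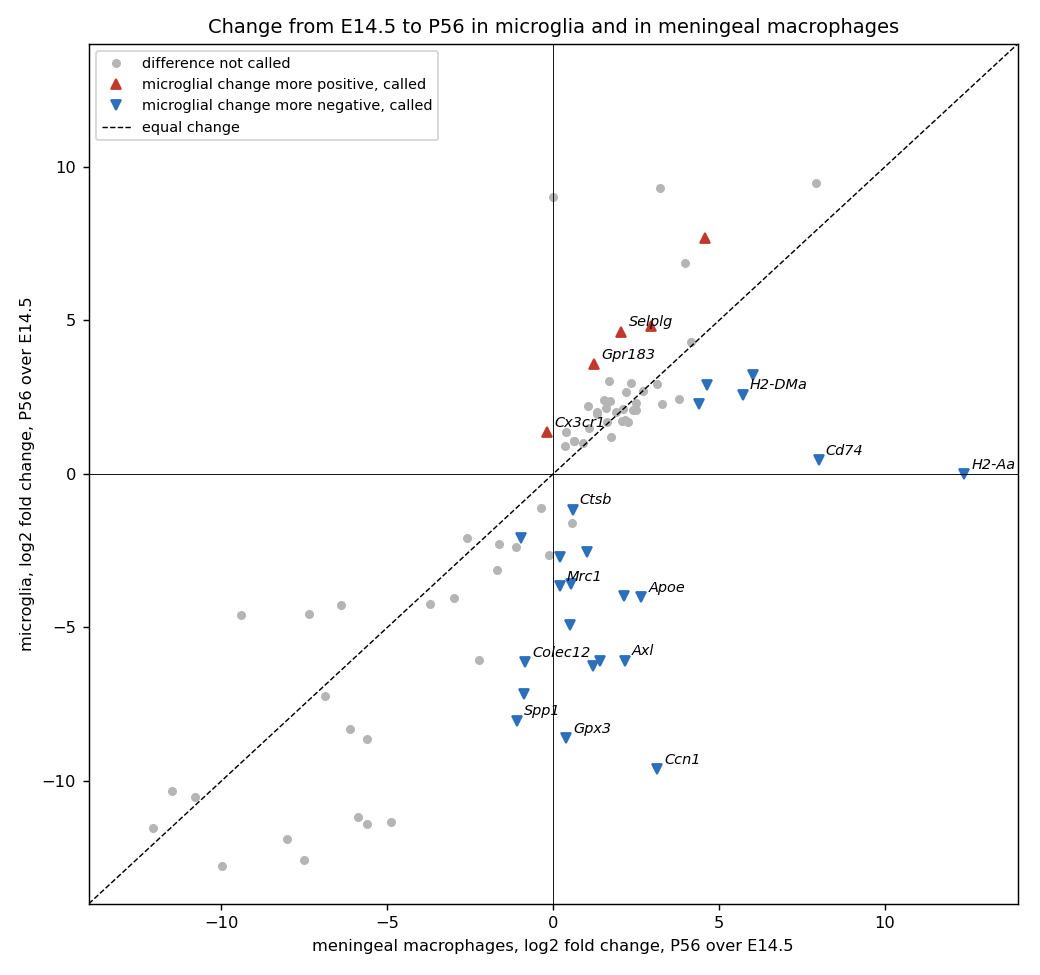
Log2 fold change from E14.5 to P56 in meningeal macrophages (x axis, 3 against 3 libraries) and in microglia (y axis, 5 against 3) for the genes named here. Triangles mark genes whose changes differ by the test, pointing up where the microglial change is the more positive; Apoe and Axl lie at lower right, Cd74 and H2-Aa at far right near a microglial change of 0.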

How the data were processed

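RNA of sorted cells was turned into cDNA with the SMARTer v4 kit and into libraries with Nextera XT, per the labels' protocols, which do not mark strand, so overlapping and antisense genes cannot be told apart. The deposited table holds whole-number read counts per gene symbol, which the authors made with bcl2fastq 2.18, STAR 2.7.8a and featureCounts 2.0.2, per the submitters' processing notes. The counting settings, the annotation and the genome build were not given in the sources used here.

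Of 53546 symbols, 35253 had a count and 17064 passed edgeR's filterByExpr (minimum count 10, total 15). All 45 libraries were fitted in edgeR 4.0.16 (R 4.3.3; TMM, robust quasi-likelihood F test) with a coefficient for each population and age and a term for batch S276, which was itself called for 1098 genes. With that term the fold change lies close to that between E14.5 and the S232 libraries of P56. Fold changes of genes without counts at 1 age are given as bounds against 3 counts over the group, and with 1 to 3 counts as ratios with an interval that covers counting error only. The steps were tested on simulated data. Same-numbered libraries were not paired.

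Alternatives were DESeq2's size factors, its Wald test (DESeq2 1.42.0), limma 3.58.1, no filter, other sets of libraries, no batch term, a replicate block and leaving out each library, and, chosen after seeing the data, the compared groups without the batch term. Genes were named by size of change within lists, overall and against mMΦ at a mean of at least 5 CPM, beside a set followed throughout, and some of those selected are not shown. Cdc20, Ttk, Nuf2 and Tlr4 were added after their values were seen. Members, lists and tests were chosen with earlier results of these data known. Promoter sequences are from RefSeq (GRCm38.p6), used by symbol only, without coordinates from the count table.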

Additional observations from a re-analysis of the deposited data

Results flagged for a closer look

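In several genes 1 of the 5 adult microglia libraries stood far from the other 4 for its group's range, a gap that chance gives in a small share of such groups (about 1 in 20). At P56 these were replicate 2 for Mki67 (0.606 CPM), Gpnmb (0.242), Pf4 (4.36) and Cxcl16 (198), replicate 3 for Top2a (24.6), Ccna2 (21.7), Fabp5 (3.91) and H2-Aa (19.6), replicate 4 for Ccnb1 (0.849) and Stard4 (3.25), replicate 1 for Spp1 (11) and replicate 5 for Itgal (0.0571, a single count). In each case the library was the highest. The share of 1 in 20 does not hold for genes left with a few counts, such as Mki67, Gpnmb and Itgal. There a single count can set a library apart. The number of genes screened is not given, so the number expected by chance is not known. The summed level of T and NK cell markers was 42.1 CPM in replicate 2 at P56, beside 0.114 to 0.686 CPM in the other 4.

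The change of microglia from E14.5 to P56 differed from that of mMΦ for 294 genes by edgeR's test of the difference. On the log2 scale, as microglial change minus mMΦ change, the difference was positive for Cx3cr1 (1.54), Cst3 (1.86), Selplg (2.57), Gpr183 (2.34) and Sult1a1 (3.10). It was negative for the lipid genes Apoe (-6.68), Gpx3 (-8.99), Fabp5 (-6.27) and Stard4 (-7.53), for Igf1 (-5.43), for the border macrophage genes Ms4a7 (-6.13) and Mrc1 (-3.85) and for Ldha (-1.13). It was also negative for C2 (-7.44), Ctsb (-1.75), Axl (-8.24), Colec12 (-5.28) and Ccn1 (-12.74), for H2-DMa (-3.13), H2-DMb1 (-2.81), H2-Aa (-12.39) and Cd74 (-7.56), and for Cd14 (-1.72), Ccl3 (-4.12), Cxcl16 (-2.14) and Ccr1 (-3.56). The difference of Spp1 (-6.94, adjusted p = 0.047) was lost without any 1 of 7 of the 8 libraries, all but P56 replicate 1 (adjusted p = 0.054 to 0.096), and under the replicate block (0.062). That of Ccl4 (-2.90, adjusted p = 0.042) was lost without E14.5 replicate 1, 2 or 3 or P56 replicate 1, 4 or 5 (adjusted p = 0.051 to 0.099).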

How the results depend on the processing

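The 1758 genes called, 828 higher and 930 lower, became 1144 (459 higher) with no filter on low counts, 3022 (1403 and 1619) with DESeq2's Wald test, 3353 (1379 and 1974) with limma voomWithQualityWeights and 839 (438 and 401) with only the compared groups and no batch term. The 294 differences from mMΦ, 81 positive and 213 negative, became 191 (38 positive), 1098 (477 and 621) and 760 (278 and 482) under the former 3. Leaving out 1 library gave 488 to 839 genes called higher and 42 to 94 positive differences. The median over all genes moved from -0.07 to -0.25 with limma and to 0.04 without the batch term. With limma 1584 of the 1758 calls were kept, and all 1758 genes had a fold change of the same sign. Genes that lost their call included abundant ones such as P2ry12 and Apoe and less abundant ones such as Mrc1, Ms4a7 and Ccr1. The cause was not tested. No called gene was called in the opposite direction under any alternative. H2-Aa, uncalled at -0.01, was at 0.55 with limma, 0.23 with the compared groups only, 0.28 within batch S232, 0.70 with the replicate block, and -1.82 to 1.74 without 1 library. Cd74, uncalled at 0.44, was at -0.26 with the compared groups only and -0.20 within batch S232. With the replicate block 1670 genes were called between the ages. Same-numbered libraries did not deviate together (correlations of deviations -0.0003, -0.0564 and -0.0707), so the numbers do not pair them. The compared groups alone shared 994 of the 1758 calls.

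Sex was mixed at E14.5 and male at P56, and the S276 libraries are all adult among those compared. A gene left with a few counts at P56 is limited by depth, and its fold is known only within its counting interval. Adult replicate 2 was the shallowest library and least like the others.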
